A study of Bos taurus with 16 samples.

Results

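Metallothioneins and their zinc partners were followed through 16 RNA sequencing libraries of bovine ovarian follicle cells, 7 labelled treatment and 9 labelled control. The genes were taken by name, as MT2A, MT1E, MT1A, SLC30A1 and MTF1, and the list was drawn up because metallothionein levels in these libraries had stood out, so every level and fold change of these genes between treatment and control is a description and carries no test. The 5 names led to 6 genes of the 20629 genes and transcripts counted. In RefSeq's bovine gene table MT1E is no gene's first symbol but a synonym of MT1A, LOC613358 and LOC768319, so those last genes are given under their own identifiers.

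Per the labels, all 16 libraries came from lactating Holstein cows of a cohort of 45, at 63 ± 3 days after calving. Ovulation had been synchronised in both groups with GnRH and prostaglandin F2α, the dominant follicle was aspirated shortly before the final GnRH injection, and the granulosa cells, the somatic cells that line the follicle and make oestradiol, were pelleted and washed. The study asked whether these cells still differ after a uterine infection has cleared. Cows with metritis had received ceftiofur, an antibiotic, but the labels neither say which libraries came from such cows nor what the word treatment stands for. The tissue field reads blood for every library. The labels do not tie libraries to single cows, so any spread given here is between libraries, and they name no sequencing batch.

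The libraries fell into 2 kinds by INHA, which encodes the inhibin alpha chain made by granulosa cells. In 9 libraries, treatment replicates 4 to 7 and control replicates 2, 3, 4, 7 and 8, INHA lay between 1759 and 3041 CPM (a gene's counts scaled to the library's transcript total), and these are called granulosa-rich. In the other 7, treatment replicates 1 to 3 and control replicates 1, 5, 6 and 9, it lay between 0.404 and 111 CPM. Summed markers of all leukocytes reached 5079.9 to 7467 CPM in those 7 libraries, which are called leukocyte-rich, and summed granulosa markers only 30.7 to 3855 CPM. Summed theca and stroma markers were uneven among them, at 7850, 10992 and 401 CPM in treatment replicates 1, 2 and 3. In control replicates 1, 5, 6 and 9 they were at 1315, 1806, 2313 and 530 CPM. Treatment replicates 1 and 2 thus held more of them than of leukocyte markers (6047 and 5080 CPM). The part of this unevenness in the levels below was not tested. In bulk RNA, fewer cells of a type and less RNA per cell cannot be told apart. The kinds were set by a measured gene, so differences between them are described and not tested. Libraries held 8111862 to 14348753 counts, of which 8004595 to 14138964 were on transcripts. At these transcript totals 3 counts, taken as the floor of detection, equal 0.212 to 0.375 CPM.

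Metallothioneins are small, cysteine-rich proteins that bind zinc and copper and buffer the free metal in the cell. When zinc rises, the zinc-finger factor MTF1 binds metal response elements and switches on metallothionein genes and SLC30A1, the exporter ZnT1 that carries zinc out across the plasma membrane. Glucocorticoids, cytokines and oxidative stress also raise metallothionein RNA, and SLC39A8, the importer ZIP8, brings zinc into the cell.

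MT2A, usually the most abundant metallothionein in mammalian tissue, is recorded as NM_001075140.1. Its level in the granulosa-rich treatment libraries was 99.1, 166, 83.0 and 6499.6 CPM in replicates 4, 5, 6 and 7. In the granulosa-rich control libraries it was 72.6, 93.6, 38.1, 182 and 82.9 CPM in replicates 2, 3, 4, 7 and 8. Treatment replicate 7, with 82624 MT2A counts, stood 35.7-fold above the next granulosa-rich library, control replicate 7, while the other 3 treatment libraries lay inside the control range. The leukocyte-rich treatment libraries held 95.9, 149.8 and 395 CPM in replicates 1, 2 and 3. The leukocyte-rich control libraries held 73.2, 399.7, 337 and 75.8 CPM in replicates 1, 5, 6 and 9. The leukocyte-rich groups overlapped: treatment replicate 3 and control replicates 5 and 6 were high, and the other 4 libraries were low under either label.

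MT1A, a second zinc-binding metallothionein, is recorded as NM_001040492.2. It measured 51.7, 159, 145 and 2487 CPM in granulosa-rich treatment replicates 4, 5, 6 and 7, against 129, 47.5, 32.8, 134 and 135 CPM in granulosa-rich control replicates 2, 3, 4, 7 and 8. Treatment replicate 7 was again the high library, 15.7-fold above treatment replicate 5, and the rest overlapped. MT1A was uneven among the leukocyte-rich libraries, with 7.45, 3.03 and 168 CPM in treatment replicates 1, 2 and 3, against 0.884, 56.9, 13.2 and 41.9 CPM in control replicates 1, 5, 6 and 9. The lowest of these, control replicate 1, rested on 12 counts.

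LOC613358, recorded as NM_001114857.2, followed the kind of library. Its level was 45.5, 107, 88.8 and 1128 CPM in granulosa-rich treatment replicates 4 to 7, against 177, 81.9, 18.9, 70.1 and 105 CPM in granulosa-rich control replicates 2, 3, 4, 7 and 8. In the leukocyte-rich libraries it was 10.7, 3.60 and 7.34 CPM in treatment replicates 1 to 3, against 5.31, 18.7, 16.6 and 8.87 CPM in control replicates 1, 5, 6 and 9. It was the single gene of the 6 whose range in the granulosa-rich libraries did not overlap that in the leukocyte-rich ones, and control replicate 4 cleared control replicate 5 only barely. The medians differed 10.0-fold, and those of MT1A, whose ranges overlapped, 10.1-fold. Of all 9653 genes kept by the filter on low counts, 17.7% showed such a separation, so 1 of 6 is close to that background.

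LOC768319, recorded as NM_001078134.2, had the fewest counts of the 4 metallothioneins, lengths not considered. It had 6.04, 9.36, 12.2 and 104 CPM in granulosa-rich treatment replicates 4 to 7, against 10.1, 1.11, 1.41, 3.32 and 5.83 CPM in granulosa-rich control replicates 2, 3, 4, 7 and 8. The leukocyte-rich libraries lay between 0.750 and 9.70 CPM, treatment replicate 3 being the highest. MT3 and MT4, which in mammals are best known from brain and squamous epithelium, stayed near the floor. MT3 had 64 counts, or 5.40 CPM, in treatment replicate 3, and was at 0 in 6 libraries. MT4 had at most 2 counts and was at 0 in 7 libraries.

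**Figure D1:**
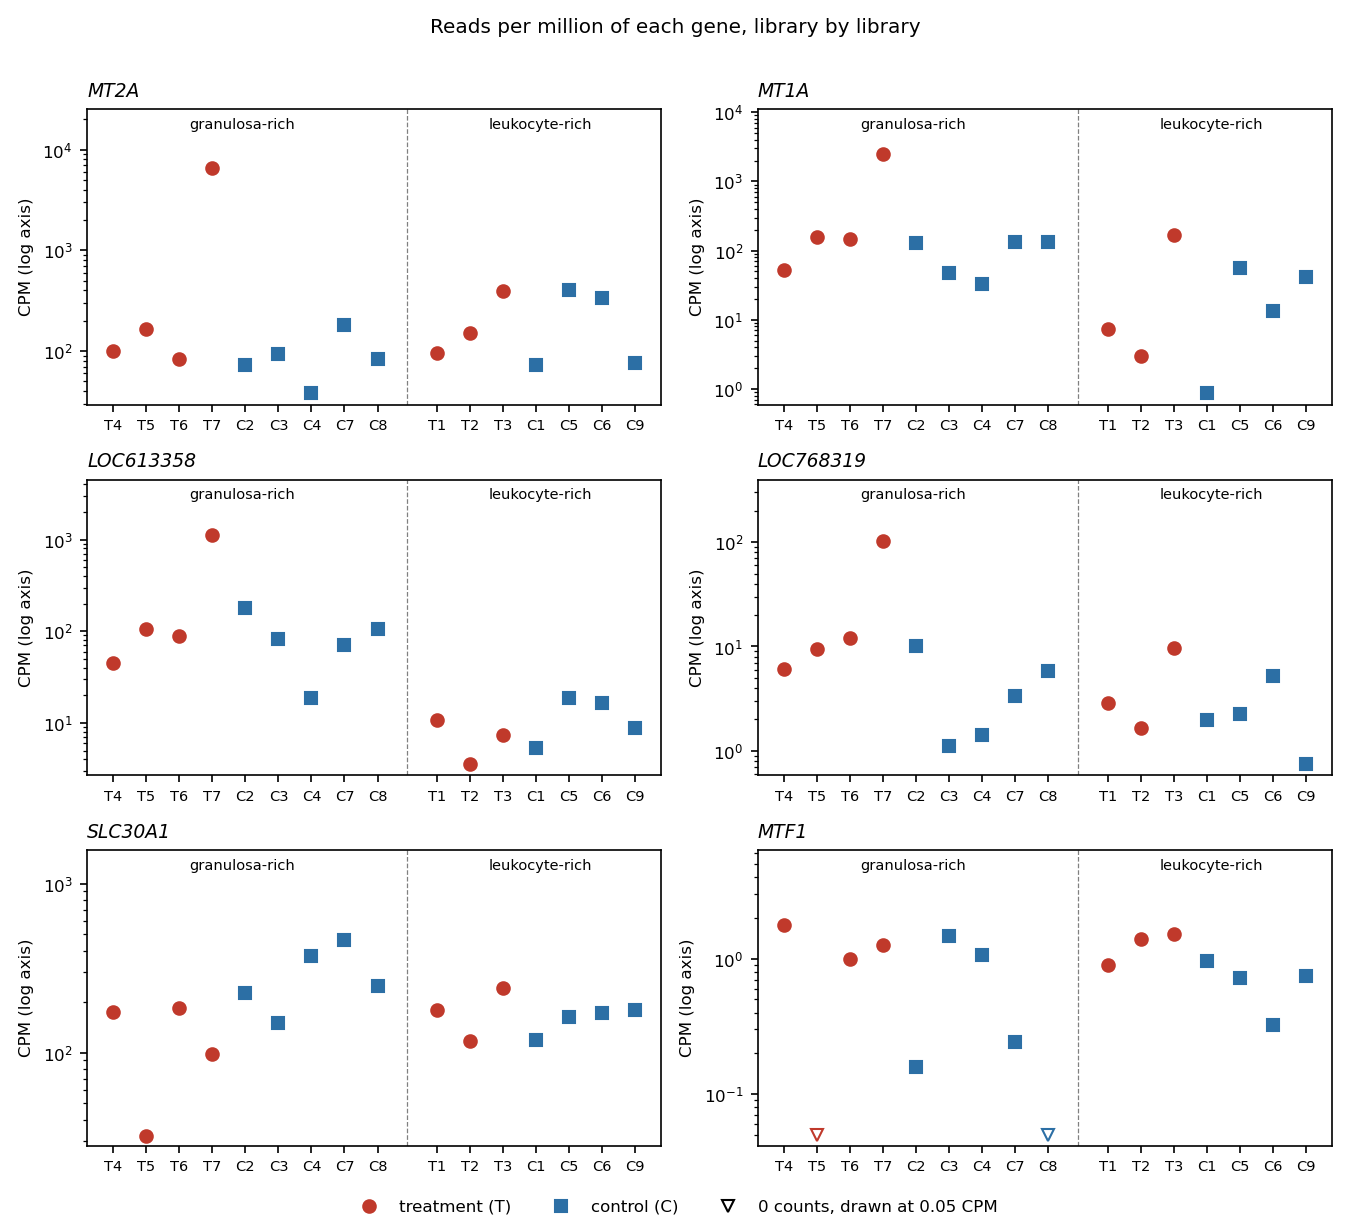
Level of the 6 genes in every library (vertical axis, CPM, log scale), with 1 panel per gene and 1 point per library, grouped by kind of library and by treatment (T) and control (C); open triangles mark 0 counts. Treatment replicate 7 lies apart in the 4 metallothionein panels, at 6499.6, 2487, 1128 and 104 CPM, and within the range of the others for SLC30A1 and MTF1.

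All 4 metallothioneins thus had their highest level of the 16 libraries in treatment replicate 7. Over the median of the other 8 granulosa-rich libraries the excess was 73.6-fold for MT2A, 18.9-fold for MT1A, 13.2-fold for LOC613358 and 17.5-fold for LOC768319. Over the highest of those 8 it was 6.36-fold for LOC613358 and 8.52-fold for LOC768319. Among 7801 genes with a mean of at least 2 CPM in these 9 libraries, 3.11% were more than 2-fold above every other granulosa-rich library in treatment replicate 7, 0.795% more than 5-fold, and 0.295%, or 23 genes, more than 10-fold. All 4 metallothioneins passed 5-fold, MT2A had the third largest excess of all, and MT1A was also among the 23. In control replicate 8, 30 genes stood more than 10-fold above every other granulosa-rich library, and in control replicate 3 the number was 15.

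The RefSeq table (assembly ARS-UCD2.0, used for names and neighbours only) places MT1A, LOC768319, LOC613358, MT2A, MT3 and MT4 side by side with no other gene between them. The 3 flanking genes given here, chosen after their values were seen, did not share the high level. BBS2, a subunit of the ciliary BBSome, was at 71.1 CPM in treatment replicate 7, within the 34.1 to 154 CPM of the other 8 granulosa-rich libraries. NUDT21, a factor of RNA 3′-end processing, was at 107 CPM there, against 69.7 to 129 CPM in the others. MMP2, on the other side, was at 2.05 CPM, against 0.317 to 26.4 CPM.

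The 4 metallothioneins together took 10218 CPM in treatment replicate 7, which is 129897 counts, or 1.02% of that library. The other granulosa-rich treatment libraries held 202, 440.0 and 329 CPM in replicates 4, 5 and 6, and the granulosa-rich control libraries 388, 224, 91.2, 389.5 and 328 CPM in replicates 2, 3, 4, 7 and 8. The leukocyte-rich libraries spanned 117 to 580.0 CPM in treatment and 81.4 to 477 CPM in control. Outside treatment replicate 7 the ranges of the 2 kinds overlapped, with medians of 328 CPM in the granulosa-rich and 158 CPM in the leukocyte-rich libraries.

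The make-up of that sum also differed between the kinds. MT2A held 18.7 to 63.6% of metallothionein counts in the granulosa-rich libraries (median 41.7%), and 59.6 to 94.8% in the leukocyte-rich ones (median 83.7%). Without treatment replicate 7 the granulosa-rich shares ended at 49.0% (treatment replicate 4, Wilson 95% interval 46.7 to 51.3%), below the lowest leukocyte-rich share (control replicate 9, 59.6%, interval 56.5 to 62.5%). These intervals cover counting error only, since reads without molecular identifiers are not independent molecules. MT1A made up 21.2 to 44.1% of metallothionein counts in the granulosa-rich libraries, against 1.09 to 32.9% in the leukocyte-rich ones, and LOC613358 11.0 to 45.6% against 1.27 to 9.13%. Treatment replicate 7 had a make-up of its own among the granulosa-rich libraries, with the highest MT2A share, 63.6% (interval 63.3 to 63.9%), and the lowest LOC613358 share, 11.0%, where the others held at least 18.0%. Shares are of counts and are not corrected for transcript length. The copies belong to 1 gene family, and their sequences were not compared here. The handling of reads that map to several transcripts is not given in the sources used here. A split between copies is therefore less certain than their sum.

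**Figure D2:**
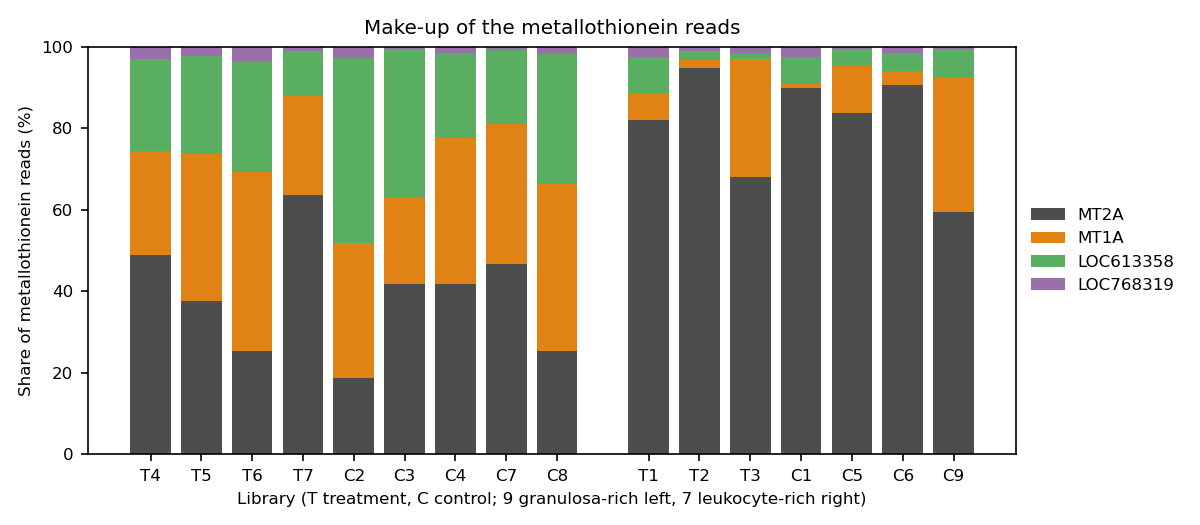
Share of the counts of the 4 metallothioneins held by each of them (vertical axis, percent), 1 stacked bar per library, with the granulosa-rich and the leukocyte-rich libraries apart and treatment left of control in each. MT2A takes 59.6 to 94.8% of the bar in the leukocyte-rich libraries and, outside treatment replicate 7, at most 49.0% in the granulosa-rich ones.

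SLC30A1, the zinc exporter, is recorded as NM_001205893.1 and did not follow the metallothioneins. Its level was 174, 32.1, 182 and 97.5 CPM in granulosa-rich treatment replicates 4, 5, 6 and 7, against 226, 149, 375, 461 and 249 CPM in granulosa-rich control replicates 2, 3, 4, 7 and 8. The groups overlapped only because control replicate 3 lay under treatment replicates 4 and 6, and treatment replicate 7, the library with the most metallothionein RNA, ranked 8 of 9. The lowest library, treatment replicate 5, had counts for 12874 transcript accessions, the fewest of the 16, the others having 13568 to 19132. The part of that difference in its SLC30A1 level was not tested. The leukocyte-rich libraries held 178, 116 and 243 CPM in treatment replicates 1 to 3, against 119, 163, 171 and 178 CPM in control replicates 1, 5, 6 and 9, and those groups overlapped.

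MTF1, the zinc sensor, was barely counted: 152 counts over all 16 libraries, from the accessions NM_001035080.2 and XM_005204693.3. It had 16, 0, 10 and 16 counts in granulosa-rich treatment replicates 4 to 7, against 2, 16, 15, 3 and 0 counts in granulosa-rich control replicates 2, 3, 4, 7 and 8. In the leukocyte-rich libraries it had 8, 17 and 18 counts in treatment replicates 1 to 3, against 13, 8, 4 and 6 counts in control replicates 1, 5, 6 and 9. The highest level was 1.76 CPM, in treatment replicate 4. Its log2 fold change was 0.69 ± 0.66 over the 16, 0.53 ± 1.14 over the granulosa-rich and 0.89 ± 0.51 over the leukocyte-rich libraries.

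Set against each other over all 16 libraries, treatment and control gave no called gene: 0 of 9653 passed an adjusted p under 0.05 in edgeR's quasi-likelihood test with Benjamini-Hochberg adjustment, a background of 0%. At an unadjusted p under 0.05 there were 163 genes. DESeq2 called 3 genes and limma-voom 0. None of the 6 zinc genes was called. In the granulosa-rich libraries the edgeR test called 0 of 9272 genes (0%), with 433 at an unadjusted p under 0.05, DESeq2 called 21 and limma-voom 0. In the leukocyte-rich libraries it called 0 of 9912 (0%), with 259 at an unadjusted p under 0.05, DESeq2 called 1 and limma-voom 0. Treatment and control ranges overlapped for all 6 genes in both kinds of library, where 1.73% of all tested genes in the granulosa-rich and 3.83% in the leukocyte-rich libraries had ranges that did not overlap.

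The fitted fold changes of the metallothioneins in the granulosa-rich libraries, treatment over control, rested on 1 library. For MT2A the log2 fold change was 3.90 ± 1.30 (SE) with treatment replicate 7 and 0.07 ± 0.58 without it. MT1A behaved likewise, at 2.67 ± 1.03 and, without that library, 0.13 ± 0.60. For LOC613358 the sign turned: the value was 1.79 ± 0.90 with the library and -0.26 ± 0.58 without it. LOC768319 kept a positive value, 2.76 ± 0.96 with the library and 0.93 ± 0.73 without it. Over all 16 libraries the MT2A value was 2.80 ± 0.97, and 0.06 ± 0.55 without treatment replicate 7.

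SLC30A1 had a negative value that did not hang on that library. In the granulosa-rich libraries its log2 fold change was -1.64 ± 0.55, and -1.56 ± 0.63 without treatment replicate 7. With any 1 of the 9 libraries left out it lay between -1.87 and -1.25. In the leukocyte-rich libraries the value was 0.20 ± 0.28, and -0.15 without treatment replicate 3, so no direction held there. The difference of the fold changes between the kinds, fitted as an interaction, was -1.85 ± 0.71 for SLC30A1 and 3.94 ± 1.77 for MT2A, and the MT2A difference was 0.11 without treatment replicate 7. The interaction test called 0 of 11468 genes (0%), with 609 at an unadjusted p under 0.05.

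In the leukocyte-rich libraries, leaving out treatment replicate 3 turned the sign of MT1A and LOC768319, lowered MT2A and hardly moved LOC613358. There the log2 fold change of MT1A was 1.18 ± 1.54, and -2.47 without treatment replicate 3. LOC768319 gave 0.92 ± 0.80, and -0.25 without it. MT2A gave -0.02 ± 0.79, and -0.91 without it, and LOC613358 gave -0.78 ± 0.54, and -0.86 without it. The copies differed in sign with all 7 libraries and were all negative without treatment replicate 3, with none called in either fit.

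**Figure D3:**
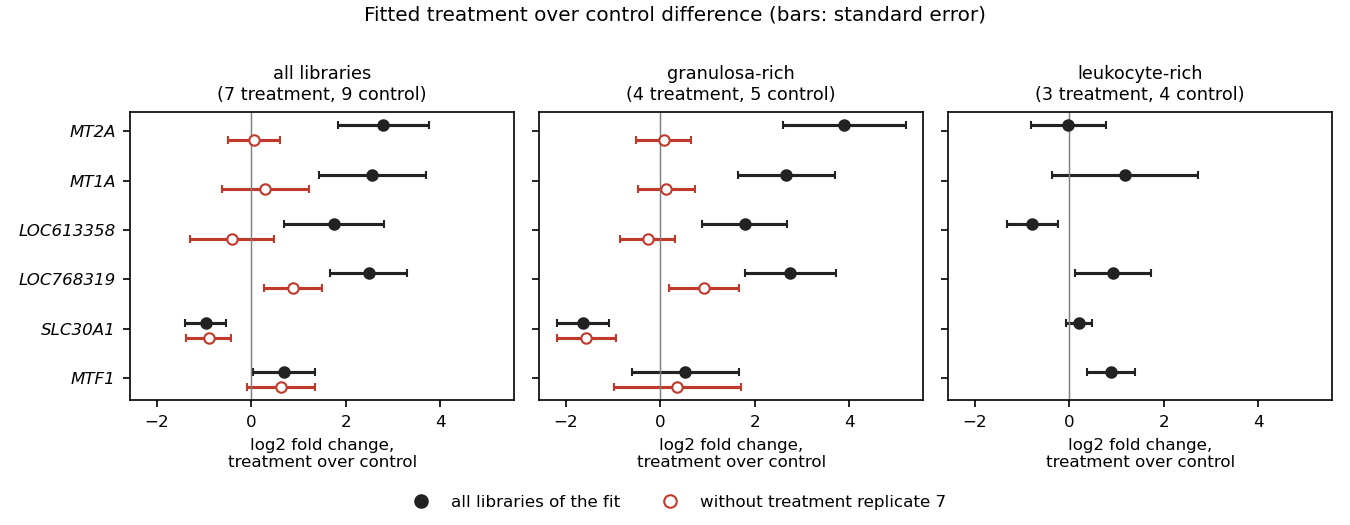
Fitted log2 fold change of the 6 genes, treatment over control (horizontal axis, log2), over all 16, the granulosa-rich and the leukocyte-rich libraries in 3 panels; filled points use all libraries of the panel, open points leave out treatment replicate 7, and bars are standard errors. The MT2A point of the granulosa-rich libraries lies at 3.90 with all libraries and at 0.07 without treatment replicate 7, while that of SLC30A1 lies at -1.64 and -1.56.

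Other zinc transporters were read from lists of named genes. Of 10 zinc exporters other than SLC30A1, 6 occurred in the files and 5 passed the filter in the granulosa-rich fit. None was called, 5 of 5 had a negative fitted value, and their median log2 fold change was -0.31, against 0.04 over all 9272 genes. SLC30A5, which loads zinc into the secretory pathway, gave -0.29 ± 0.20, and SLC30A6, its partner, -0.57 ± 0.54. Of 14 zinc importers, all in the files, 7 passed the filter and none was called, 3 having a positive and 4 a negative value with a median of -0.02. SLC39A6, which imports zinc across the plasma membrane, gave 0.66 ± 0.45, and 0.24 ± 0.43 without treatment replicate 7, and SLC39A3 gave 0.71 ± 0.52. Without treatment replicate 7 all 5 exporters tested were again negative, with a median of -0.35. Of the importers, 4 were then positive and 5 negative, with a median of -0.23. In the leukocyte-rich fit 3 of 4 exporters tested were positive and 1 negative, with a median of 0.13. Of 8 importers tested there, 4 were positive and 4 negative, with a median of -0.05, and no exporter or importer was called.

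SLC39A8, the importer ZIP8, had the highest mean CPM of the importers, lengths not considered. It stood at 231, 425, 372 and 12919 CPM in granulosa-rich treatment replicates 4 to 7, against 1147, 389.6, 3169.5, 8331 and 768 CPM in granulosa-rich control replicates 2, 3, 4, 7 and 8. Its log2 fold change was -0.13 ± 1.33 with all 9 libraries and -3.44 ± 1.16 without treatment replicate 7, and neither value was called. Treatment replicate 7 and control replicates 7 and 4 were the high libraries, and their MT2A levels were 6499.6, 182 and 38.1 CPM, the highest, the second highest and the lowest of the 9.

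Treatment replicate 7 also stood apart in genes of the luteinising hormone surge, the signal that switches the follicle from oestradiol synthesis to ovulation. TNFAIP6, which cross-links hyaluronan in the expanding cumulus matrix, was at 64.4, 375, 781 and 25541 CPM in granulosa-rich treatment replicates 4 to 7, against 322, 233, 9088, 7198 and 1176 CPM in granulosa-rich control replicates 2, 3, 4, 7 and 8. AREG, an epidermal growth factor receptor ligand released after the surge, was at 939.9 CPM in treatment replicate 7, against 0.989 to 78.9 CPM in the other 8. CYP19A1, the aromatase that makes oestradiol, was at 276 CPM there, against 8439 to 28576 CPM in the other 8. ADAMTS1, a matrix protease of ovulation, was at 603 CPM in treatment replicate 7, but at 2963 and 3564 CPM in control replicates 4 and 7. Control replicates 4 and 7 shared high TNFAIP6 and ADAMTS1 with treatment replicate 7 but not its high AREG, low CYP19A1 or metallothionein level. The part of the surge genes in the metallothionein level was not tested.

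**Figure D4:**
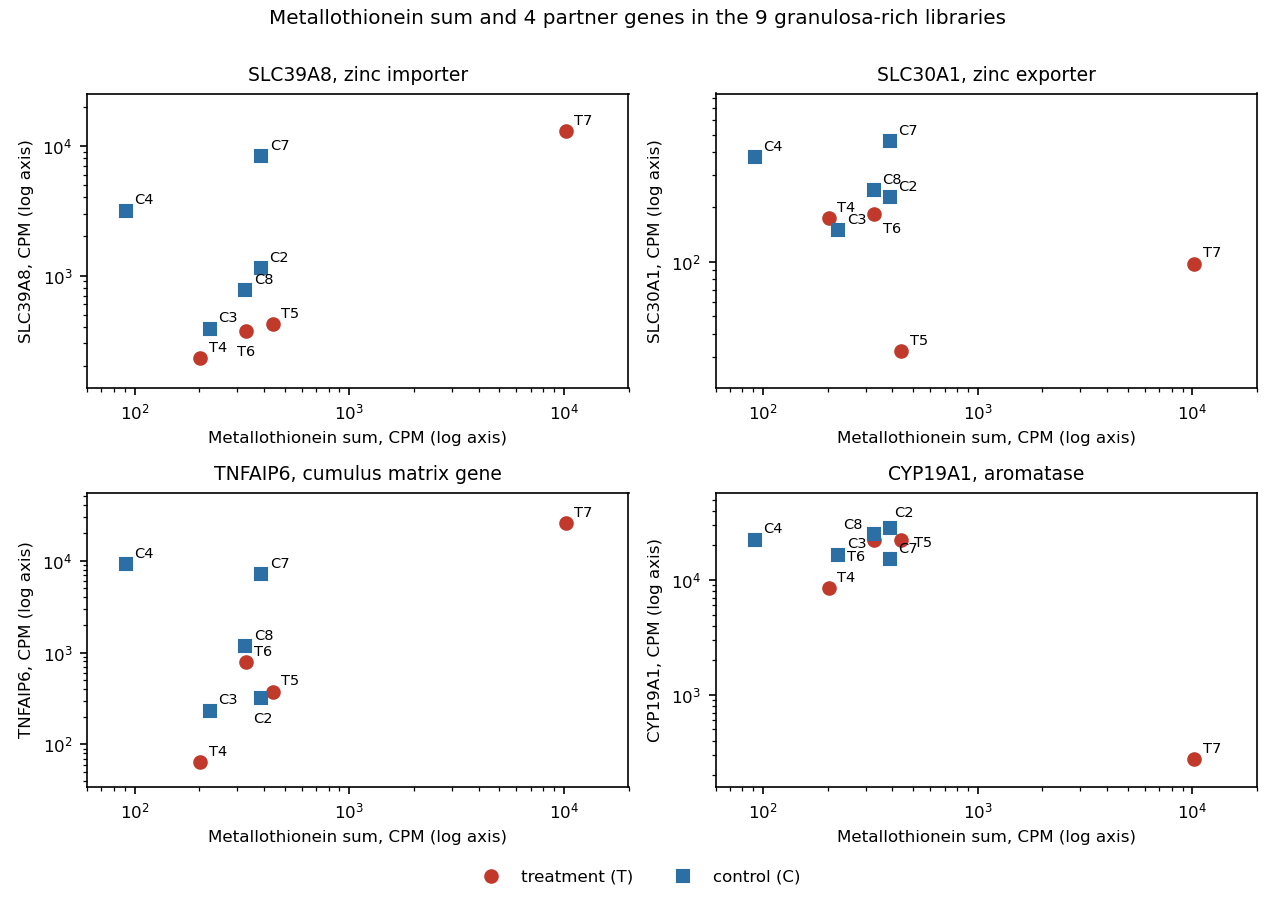
Level of a partner gene (vertical axis, CPM, log scale) against the summed level of the 4 metallothioneins (horizontal axis, CPM, log scale) in the 9 granulosa-rich libraries, with panels for SLC39A8, SLC30A1, TNFAIP6 and CYP19A1 and each point a library marked T for treatment or C for control with its replicate number. T7 lies far to the right at 10218 CPM; C4 and C7, at 91.2 and 389.5 CPM, share its high SLC39A8 and TNFAIP6 but not its low CYP19A1.

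Marker lists of cell types were summed for the same library. Granulosa markers summed to 15929.9 CPM in treatment replicate 7, against 69459.7 to 101289 CPM in the other 8 granulosa-rich libraries, with 4 of 9 markers at their lowest there. Those were INHBA, CYP19A1, FSHR and HSD17B1. INHBA and CYP19A1 weighed most in the sum, at 10234 and 276 CPM in treatment replicate 7, against medians of 51905 and 22107 CPM in the other 8. INHA, at 2395 CPM, ranked 4 of 9, and AMH, FST, FOXL2 and NR5A2 lay within the others' range. The surge list, of which 5 of 7 genes occurred in the files, summed to 27299 CPM, against 117 to 12097 CPM, with 4 of 5 at their highest. Neutrophil markers summed to 177 CPM, against 1.53 to 106 CPM, with 1 of 4 at its highest. That was S100A8, at 171 CPM, while S100A9, S100A12 and MMP9 lay within the others' range. Endothelial markers summed to 135 CPM, against 3.36 to 33.7 CPM, with 2 of 5 at their highest. Those were KDR, at 96.8 CPM against at most 28.1 CPM, and VWF, at 36.7 CPM against at most 3.96 CPM, while PECAM1 and CDH5 were at 0 in treatment replicate 7 and at most 0.647 and 0.831 CPM in the other 8. Pan-leukocyte markers (440.4 CPM, against 14.0 to 941), monocyte and macrophage markers (314 CPM, against 20.4 to 1665), T and NK cell markers (119.9 CPM, against 5.32 to 233), theca and stroma markers (1101 CPM, against 186 to 2953) and epithelial markers (755 CPM, against 17.4 to 3198) lay within the others' range. Erythroid markers were at 0.157 CPM, against 0.220 to 42.8 CPM, with HBB at 0. The part of these markers in the metallothionein level was not tested.

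Copper handling, stress and steroid genes, which share regulators or ligands with the metallothioneins, were read in the same way. Of 12 copper genes, 11 were in the files and 9 passed the filter in the granulosa-rich fit, 7 with a positive and 2 with a negative value and a median log2 fold change of 0.29. SLC31A2, a copper transporter of endosomes, gave 2.37 ± 0.81, SCO2, a copper chaperone of cytochrome oxidase, 0.63 ± 0.55, and SLC31A1, the main copper importer, 0.07 ± 0.30. Of 11 metal and oxidative stress genes, 10 were in the files and passed, 4 positive and 6 negative, with a median of -0.25. HMOX1, which breaks down haem, gave 0.92 ± 0.42, TXNRD1, thioredoxin reductase, -1.01 ± 0.44, and TXN, thioredoxin, 0.20 ± 0.42. Of 11 genes of glucocorticoid action and response, 9 were in the files and 5 passed, 1 positive and 4 negative, with a median of -1.52. TSC22D3, the leucine zipper GILZ induced by glucocorticoids, gave -1.52 ± 0.52, and CEBPD, a transcription factor of the acute phase response, -1.98 ± 0.79. CEBPD stood at 1060 CPM in treatment replicate 7 and at 138 to 274 CPM in the other 3 granulosa-rich treatment libraries, and without treatment replicate 7 its value was -3.03 ± 0.76. None of these genes was called. Without treatment replicate 7 the medians were 0.51 for the copper genes, -0.40 for the stress genes and -1.61 for the glucocorticoid genes. Of the last, 6 were then tested and all 6 were negative, and again no gene of the 3 lists was called. Directions differed in the leukocyte-rich fit. There 9 stress genes were positive and 1 negative (median 0.36), and 5 glucocorticoid genes were positive and 1 negative (median 0.41). Of the copper genes 4 were positive and 5 negative (median -0.005), and none of the 3 lists had a called gene.

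HMOX1 was highest of the 16 libraries in treatment replicate 1, a leukocyte-rich library with 6477 CPM of HMOX1 and 95.9 CPM of MT2A. The next levels, 1137 CPM in control replicate 6 and 962 CPM in control replicate 5, were in leukocyte-rich libraries with 337 and 399.7 CPM of MT2A. Control replicate 5 lay close to the HMOX1 median of the leukocyte-rich libraries, 956 CPM.

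The genes whose log2 CPM ran most like that of MT2A over the 9 granulosa-rich libraries were ranked by Pearson r among 6229 genes with a symbol, as a description over libraries that share treatment replicate 7. SCFD2, a vesicle transport factor, led with r = 0.97 (Spearman 0.77), at 243 CPM in treatment replicate 7, against 11.6 to 24.9 CPM in the other 8. PABPC1, the poly(A)-binding protein, had r = 0.97 (Spearman 0.93), at 7298 CPM, against 1276 to 2400 CPM. MOCS2, of molybdenum cofactor synthesis, had r = 0.95 (Spearman 0.45), at 862 CPM, against 87.8 to 137 CPM. GTF2E2, ATP1B3, DUSP11, FBXL14, RILPL2, GALNT1 and DNAJC21 made up the leading 10, with r from 0.93 to 0.97. MT1A followed at rank 12 with r = 0.93, LOC613358 at rank 23 with 0.87 and LOC768319 at rank 61 with 0.80, while SLC30A1 had r = -0.38.

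Most of this likeness rested on 2 libraries. Without treatment replicate 7 and control replicate 4, the libraries farthest from the median of MT2A, r over the remaining 7 was 0.61 for SCFD2, 0.65 for PABPC1 and -0.18 for MOCS2. It was 0.22 for MT1A, -0.33 for LOC613358 and -0.16 for LOC768319. The metallothioneins were high together in treatment replicate 7. Over the remaining 7 libraries, where MT2A spanned only 72.6 to 182 CPM, their likeness to MT2A was weak or negative. Leaving out the libraries farthest from the median narrows that span, which can lower r by itself.

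Over the 7 leukocyte-rich libraries, the genes most like MT2A among 6587 were SQSTM1, RNF8, MAGOH, CCDC43 and PNP, with r from 0.92 to 0.97. They were picked for the highest r over few libraries, so these values are a description. An r over 5 of the same 7 libraries is no separate support, and how far the picking raised r was not tested. For SQSTM1, the autophagy receptor p62, r was 0.97 (Spearman 0.93), and 0.93 over 5 libraries without control replicate 5 and treatment replicate 3, although SQSTM1 itself spanned only 148 to 163 CPM. MT1A reached r = 0.62, at rank 327, LOC768319 0.70, LOC613358 0.49 and SLC30A1 0.47. No gene among the leading 5 was a metallothionein or a zinc transporter.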

How the data were processed

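Per the labels' protocols, poly(A) libraries were made from 200 ng of total RNA (integrity number at least 7) by 12 amplification cycles, without strand information, so that reads of overlapping or antisense genes are counted together. The submitters' processing notes name cutadapt, Bowtie2 and SAMtools. Tool versions, genome build, annotation and the rule for multi-mapped reads are not stated there, that is, not given in the sources used here. Each library has 1 deposited table of raw whole-number counts by RefSeq accession; an accession missing from a table was set to 0.

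Of 27306 accessions, 133 were genomic records (0.712 to 1.92% of all counts per library) and were left out. The table of ARS-UCD2.0 named 18973 of 27173 transcript accessions, which held 96.3% of transcript counts. Counts were summed per gene into 20629 genes and unmatched transcripts, and CPM used the transcript total. Log2 CPM had 1 count added.

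Treatment was compared with control by edgeR 4.0.16 (R 4.3.3; quasi-likelihood, TMM, filter by group, no covariate) over 16, 9 and 7 libraries, together with an interaction fit. All 6 members passed that filter in every fit, and p-values were adjusted over all genes tested. Each standard error was derived from the fitted log2 fold change and its F value. Alternatives were other scalings and filters, DESeq2 1.42.0, limma-voom (limma 3.58.1), counts per accession, library kind as a covariate, the replicate number as a block and each library left out. Scripts were tested on simulated data.

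The members and lists were chosen with earlier results of these data known. Named besides the members are the other metallothioneins, of each pathway list the 2 genes with the lowest p in the granulosa-rich fit and the 1 with the highest mean CPM, and the 10 and 5 genes most like MT2A. TNFAIP6, AREG, ADAMTS1, CYP19A1 and the flanking genes were chosen after their values were seen. No sequence is printed, because no sequence table was used here.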

Additional observations from a re-analysis of the deposited data

Results flagged for a closer look

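Levels on the log2 scale were examined in 30 sets of 4 to 10 libraries for a highest or lowest library far from its neighbours, measured as its gap to the nearest library over the whole range of the set, and 4 ratios passed Dixon's 95% critical value for the size of the set. Chance flags about 1 set in 20. The metallothioneins were chosen because their levels had stood out, so for them the ratios are a description, and the MT2A ratios share 1 library in nested sets. MT2A in treatment replicate 7 (6499.6 CPM) stood out as the highest of the 7 treatment libraries, with a ratio of 0.642, and as the highest of the 4 granulosa-rich treatment libraries, with 0.842. MT1A in control replicate 1 (0.884 CPM, 12 counts) stood out as the lowest of the 9 control libraries, with 0.532. MTF1 in treatment replicate 5, at 0 counts, stood out as the lowest of the 7 treatment libraries, with 0.786, although the others had only 8 to 18 counts.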

How the results depend on the processing

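The edgeR test called 0 genes over the 16, the granulosa-rich and the leukocyte-rich libraries under every scaling and filter tried, and 0 with each library left out in turn (0 to 0 in each of the 3). DESeq2 called 3, 21 and 1 genes; the cause was not tested. In the granulosa-rich libraries it gave the 4 metallothioneins no p, so they could not be called there, and no zinc gene with a p was called in any of the 3. For the 16 libraries DESeq2 replaced the counts of treatment replicate 7, 82624 for MT2A by 1816 and 31620 for MT1A by 988, and its log2 fold changes were 0.04 and 0.28. Limma-voom gave MT2A 1.04 over the 16 and 1.80 over the granulosa-rich libraries. With library kind as a covariate MT2A was 2.46 ± 1.16 and SLC30A1 -0.82 ± 0.44. SLC30A1 was negative under all 17 alternatives in the granulosa-rich libraries (-1.87 to -1.25). MT2A in the leukocyte-rich libraries changed sign under 7 of 15 alternatives. Whether replicate numbers pair the libraries could not be told. Over the 1000 most variable genes, deviations of same-numbered libraries correlated from -0.72 to 0.74, with 3 of 7 pairs over 0.1 and 1 library best with its own number. The positive pairs, replicates 1, 4 and 7, joined libraries of the same kind. The negative pairs, replicates 2, 3, 5 and 6, mixed the kinds, so the check cannot separate pairing from library kind. With the number as a replicate block over replicates 1 to 7 of both groups, 0 genes were called and MT2A was 0.75 ± 0.75; the same 14 libraries without the block, a comparison chosen after seeing the data, also gave 0, with MT2A at 2.59 ± 1.10. The fits of the interaction and of the gene lists without treatment replicate 7 were also chosen after seeing the data. MTF1 could not be compared per accession, since neither accession passed the filter on low counts. After TMM scaling the median MT2A level was 84.4 CPM (93.6 unscaled) in the granulosa-rich and 132 CPM (149.8 unscaled) in the leukocyte-rich libraries. Depth limits MTF1, MT3 and MT4, which were at or under the floor in several libraries.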
